A study of Mus musculus with 6 samples.

Results

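The genes described are 10 components of bone morphogenetic protein (BMP) signalling in the fetal mouse gonad, taken by gene symbol from the 26251 genes listed in the deposited single cell count matrices. They are the ligands *Bmp2*, *Bmp4*, *Bmp6* and *Bmp7*, the BMP3-related ligand *Gdf10*, the type I receptors *Bmpr1a*, *Bmpr1b* and *Acvr1*, the type II receptor *Bmpr2* and the secreted antagonist *Sostdc1*. All 10 were found in the matrices. Single cell mRNA sequencing of gonads at E15.5 (the embryonic stage in days) covered 3 groups with 2 libraries each. Control XY embryos were testis donors of genotype Amh+/+; Inhbb+/+, dKO XY embryos were testis donors of genotype Amh -/-; Inhbb -/-, and control XX embryos were ovary donors of genotype Amh+/+; Inhbb+/+. Both genes were lacking in the whole animal, not in chosen cells, so every cell type of a dKO XY gonad carried the deletions. Per the study's methods the mice had a C57BL/6 background, and the labels give the strain of all 6 libraries as Amh; Inhbb. Gonad pairs of an animal were pooled, dissociated, frozen as suspensions and thawed once the genotype was known, and none of the groups received a treatment. Dissociated cells carry no position, so cells of the poles and of the centre of a dKO XY gonad cannot be told apart here. Animals are not named in the labels, so the spread between the 2 libraries of a group is the only measure of error, and it is written as replicate 1 and replicate 2 in that order.

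BMPs are secreted dimers of the TGF-beta family that bind a complex of type I and type II serine/threonine kinase receptors, which phosphorylate SMAD1, SMAD5 and SMAD9. These join SMAD4 and in the nucleus switch on targets such as the *Id* genes, whereas extracellular antagonists, including SOSTDC1, keep ligands from their receptors. AMH and activin B, the proteins missing from the dKO, belong to the same family, and AMH signals through its own type II receptor but shares type I receptors and SMADs with the BMPs. In the fetal ovary BMP2 is known as a female-biased ligand of the supporting lineage. In the coordinates of GRCm38 (mm10, GENCODE M21), the ligand genes lie on chromosome 2 from 133552159 to 133562885 (*Bmp2*, plus strand), chromosome 14 from 46383520 to 46390669 (*Bmp4*, minus strand), chromosome 13 from 38345107 to 38500302 (*Bmp6*, plus strand), chromosome 2 from 172868012 to 172940321 (*Bmp7*, minus strand) and chromosome 14 from 33923587 to 33937983 (*Gdf10*, plus strand). The receptor genes lie on chromosome 14 from 34410734 to 34503341 (*Bmpr1a*, minus strand), chromosome 3 from 141837136 to 142169425 (*Bmpr1b*, minus strand), chromosome 2 from 58388644 to 58567157 (*Acvr1*, minus strand) and chromosome 1 from 59763400 to 59879014 (*Bmpr2*, plus strand). *Sostdc1* lies on chromosome 12 from 36314139 to 36318452 (plus strand).

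After filtering, 39350 of 68064 barcodes were kept as cells, 4781 to 8569 per library, and they held 118475468 to 221675316 UMIs (unique molecular identifiers, each counting a captured transcript) per library. Barcodes with over 25% mitochondrial UMIs, which were left out, made up 24.4% and 28.3% of the barcodes in the dKO XY libraries. They made up 4.50% and 7.65% in the control XY libraries and 9.35% and 2.22% in the control XX libraries, so more was lost from dKO XY. Pairs of libraries shared between 4 and 25 cell barcodes. The deleted *Amh* was read at 2054 and 1911 CPM (UMIs per 1000000 UMIs of the cells summed) in control XY supporting cells and at 17.9 and 15.6 CPM in dKO XY, and *Inhbb* was read at 163 and 185 CPM against 41.6 and 50.9 CPM. *Amh* followed the labels of the 4 XY libraries. *Inhbb* was at 37.2 and 25.4 CPM in control XX, below dKO XY, and the counts are over the whole gene rather than its deleted part, so its level does not check the labels. Cells were clustered without the 10 genes and without the other BMP pathway genes, and 8 cell types were named from marker genes: supporting, interstitial, Leydig, endothelial, pericyte, immune, epithelial and germ cells. The cluster of immune cells also passed for all 7 erythroid markers and that of epithelial cells for 6 of 9 granulosa markers. Leydig cells were not found as such in control XX, and control XY held only 15 and 7 germ cells.

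Levels are given as CPM of the cell type in that library. The main source of *Bmp2* differed between the groups. In control XY it was read in Leydig cells at 59.4 and 49.8 CPM and in supporting cells, the Sertoli lineage of the testis, at 1.60 and 1.85 CPM. In control XX the supporting cells, the granulosa lineage, held 93.0 and 83.5 CPM, and the dKO XY supporting cells lay between the controls at 24.0 and 19.9 CPM. Supporting cells held 83.9% and 70.3% of all *Bmp2* UMIs of the control XX libraries. In control XY, Leydig cells held 56.6% and 54.0% and interstitial cells 36.6% and 31.9% of them. In dKO XY the transcripts were spread over interstitial (39.3% and 38.4%), Leydig (26.2% and 26.3%) and supporting cells (16.5% and 16.4%). These shares also move with the number of cells per type, which for supporting cells was 259 and 534 cells in control XY, 1305 and 958 cells in dKO XY and 2991 and 1185 cells in control XX.

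Outside the supporting lineage, *Bmp2* was read in epithelial cells at 13.7 and 14.8 CPM in control XY, 73.1 and 66.1 CPM in dKO XY and 85.3 and 51.7 CPM in control XX. In endothelial cells the values were 17.8 and 20.9 CPM in control XY, 18.6 and 15.3 CPM in dKO XY and 31.2 and 37.3 CPM in control XX. Control XX held 47 and 63 immune cells, of which 6 and 56 were left without likely doublets. Immune cells differed widely between replicates, with 27.7 and 95.7 CPM in control XY, 22.3 and 49.2 CPM in dKO XY and 168 and 204 CPM in control XX. In those cells the 7 erythroid markers summed to 3209 and 7212 CPM in control XY, 12107 and 4768 CPM in dKO XY and 46281 and 12856 CPM in control XX, highest in the control XX libraries, and their part in the *Bmp2* level was not tested. In the order of control XY types, immune and Leydig cells overlapped between libraries, as did pericytes and interstitial cells.

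**Figure D1:**
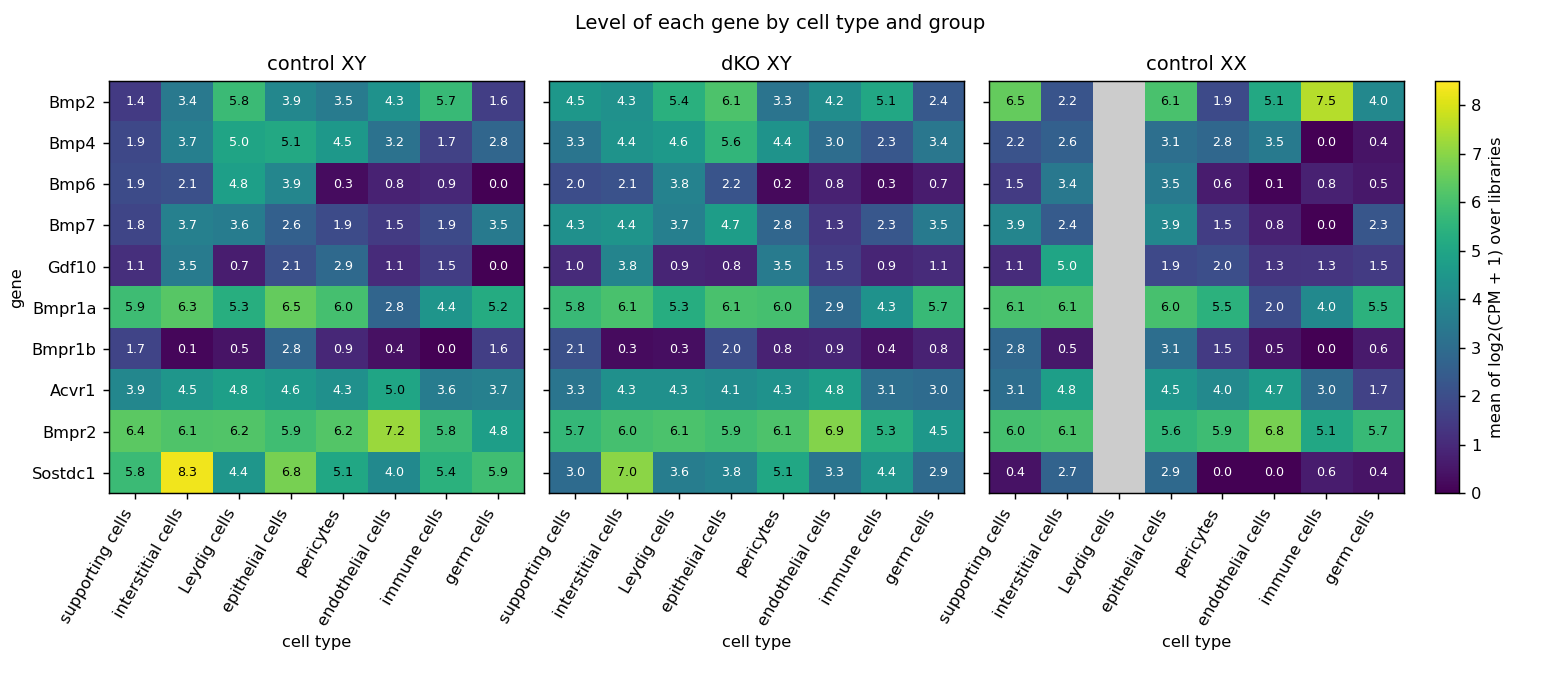
Mean of log2(CPM + 1) over the 2 libraries of each group for each of the 10 genes (rows) and 8 cell types (columns), for control XY, dKO XY and control XX. Grey marks Leydig cells, which control XX lacked, and germ cells of control XY rest on replicate 1 alone. *Sostdc1* was highest in control XY interstitial cells and *Bmp2* in control XX supporting and immune cells, while *Bmpr1a* and *Bmpr2* were read in every type shown. The control XX immune cells numbered 47 and 63.

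In control XY, *Bmp4* and *Bmp6* shared a high level in Leydig and epithelial cells, and *Gdf10* was read mainly in interstitial cells. *Bmp4*, which patterns mesoderm and supports the germ line in the early embryo, was read at 30.3 and 30.4 CPM in Leydig cells, 30.8 and 37.0 CPM in epithelial cells and 20.5 and 24.0 CPM in pericytes of control XY. Interstitial cells of control XY had 11.6 and 11.8 CPM. Its control XX levels were lower, at 5.47 and 10.3 CPM in epithelial cells, 7.55 and 5.06 CPM in pericytes and 4.75 and 5.59 CPM in interstitial cells. *Bmp6*, a ligand with a known part in iron control and in ovarian follicles, was read at 25.5 and 27.6 CPM in control XY Leydig cells, and at most at 3.56 CPM in the interstitial cells of the 4 XY libraries. In control XX its highest levels were in epithelial cells (8.32 and 12.9 CPM) and interstitial cells (10.1 and 9.10 CPM), which overlapped. *Gdf10* was read in interstitial cells at 10.8 and 10.6 CPM in control XY, 12.6 and 14.1 CPM in dKO XY and 26.9 and 35.3 CPM in control XX, and these cells held between 88.7% and 95.6% of its UMIs in each library. *Bmp7*, a ligand known for its part in kidney and eye development, was read in interstitial cells at 11.8 and 12.3 CPM in control XY, 18.0 and 22.0 CPM in dKO XY and 5.53 and 3.43 CPM in control XX. In supporting cells the order of groups was another, with 2.58 and 2.23 CPM in control XY, 16.6 and 20.6 CPM in dKO XY and 15.53 and 11.9 CPM in control XX.

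RefSeq (GRCm38.p6) gave promoter windows for 7 of the 10 genes, 9 windows in all, and those of the 3 matched ligand genes are shown because their transcripts were called between groups in the interstitial cells described below. Each is the 250 bases before a transcription start, 5′ to 3′ on the gene's strand, with the searched motifs in capitals. The RefSeq start of *Bmp6* lies downstream of the GENCODE gene start given above, so its window falls inside the gene as GENCODE draws it, and distances below are from the RefSeq starts.
*Bmp4*, chr14:46390670-46390919, minus strand: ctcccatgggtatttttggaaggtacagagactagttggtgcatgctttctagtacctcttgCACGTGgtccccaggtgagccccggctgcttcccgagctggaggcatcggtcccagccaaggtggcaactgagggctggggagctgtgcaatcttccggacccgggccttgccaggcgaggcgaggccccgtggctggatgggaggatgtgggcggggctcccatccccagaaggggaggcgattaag
*Bmp6*, chr13:38345466-38345715, plus strand: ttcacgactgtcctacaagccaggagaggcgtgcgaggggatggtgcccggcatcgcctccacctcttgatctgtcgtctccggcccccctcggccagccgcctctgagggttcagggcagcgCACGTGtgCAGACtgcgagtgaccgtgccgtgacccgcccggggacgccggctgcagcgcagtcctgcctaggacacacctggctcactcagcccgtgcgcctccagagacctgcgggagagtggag
*Gdf10*, chr14:33923337-33923586, plus strand: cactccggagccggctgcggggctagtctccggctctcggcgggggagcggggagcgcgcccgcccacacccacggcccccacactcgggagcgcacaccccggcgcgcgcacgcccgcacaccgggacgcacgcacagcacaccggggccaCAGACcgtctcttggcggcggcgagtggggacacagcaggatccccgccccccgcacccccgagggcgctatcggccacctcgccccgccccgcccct
Each of 4 motifs was searched on both strands, and no matches overlapped in the printed windows. The SMAD-binding element CAGAC, which reads GTCTG on the other strand, lay 119 bases before the RefSeq start of *Bmp6* and 98 before that of *Gdf10*. It was in 4 of the 9 windows, of *Bmp6*, *Bmpr1b* and *Gdf10*. The E-box CACGTG began 188 bases before the RefSeq start of *Bmp4* and 127 before that of *Bmp6*. A GC-rich SMAD motif, GGCGCC, was present in windows of *Bmpr1a* and *Bmpr2*. The core bound by NR5A1, AAGGTCA, which reads TGACCTT on the other strand, was in 0 of the 9 windows. Of 32851 promoter windows in the table, 42.2% held the SMAD-binding element, 6.02% the E-box, 9.59% the GC-rich motif and 4.08% the NR5A1 core.

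Of the receptors, *Bmpr1a* and *Bmpr2* were read in every cell type. *Bmpr1a*, the main BMP type I receptor of many tissues, was read in interstitial cells at 74.9 and 78.1 CPM in control XY, 61.2 and 72.0 CPM in dKO XY and 75.3 and 60.9 CPM in control XX, and the 3 groups overlapped. Endothelial cells were its lowest type in every group, at 5.32 and 6.53 CPM in control XY, 5.10 and 8.38 CPM in dKO XY and 2.90 and 3.14 CPM in control XX. *Bmpr2*, the type II receptor that pairs with these type I receptors, was highest in endothelial cells of all 6 libraries, with 141 and 156 CPM in control XY, 104 and 140.3 CPM in dKO XY and 122 and 94.5 CPM in control XX. *Acvr1*, a type I receptor that also takes part in AMH signalling, was likewise highest in endothelial cells of the XY groups, at 31.4 and 31.0 CPM in control XY and 23.5 and 29.2 CPM in dKO XY. In control XX, endothelial (27.0 and 22.4 CPM) and interstitial cells (27.3 and 25.6 CPM) overlapped, and epithelial cells overlapped both. *Bmpr1b*, a type I receptor known from granulosa cells and cartilage, was read at low levels. In epithelial cells it had 6.85 and 4.94 CPM in control XY, 2.99 and 3.07 CPM in dKO XY and 10.0 and 5.45 CPM in control XX. In supporting cells it had 4.55 and 1.02 CPM in control XY, 3.25 and 3.22 CPM in dKO XY and 6.90 and 5.45 CPM in control XX, which lay below the epithelial levels in control XY, overlapped them in control XX and lay above them in dKO XY. Supporting cells held 50.7% and 23.5% of its UMIs in the control XY libraries, 60.7% and 63.7% in the dKO XY libraries and 83.0% and 74.2% in the control XX libraries. The supporting cell levels came from 37 and 16 UMIs in control XY, 122 and 114 UMIs in dKO XY and 589 and 164 UMIs in control XX.

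*Sostdc1*, also known as ectodin or USAG-1, binds BMPs and WNT co-receptors. It was a gene of the XY interstitium, with 344 and 299.8 CPM in control XY, 146 and 113 CPM in dKO XY and 6.98 and 4.43 CPM in control XX interstitial cells. These cells held between 90.9% and 96.3% of its UMIs in each of the 4 XY libraries. Lower levels were read in every other type of the XY libraries, from 109.7 and 106 CPM in epithelial cells to 11.98 and 19.4 CPM in endothelial cells of control XY. Immune cells, a type not known for the gene, stood at 11.2% and 15.3% of their own library's interstitial level in control XY and 14.0% and 18.5% in dKO XY. The summed level of the 8 interstitial markers, which do not include *Sostdc1*, was 14.5% and 19.9% of the interstitial level in the same immune cells of control XY and 16.4% and 15.2% in those of dKO XY. Sertoli-like cells gave 16.8% and 18.4% for *Sostdc1* and 17.2% and 19.3% for the markers in control XY, and 7.42% and 6.05% against 12.8% and 9.96% in dKO XY. Leydig cells gave 6.68% and 6.31% for *Sostdc1* and 12.2% and 13.1% for the markers in control XY, and 9.46% and 8.10% against 17.0% and 17.4% in dKO XY. The *Sostdc1* share lay below that of the interstitial markers in these types, except in immune cells of dKO XY replicate 2. Germ cells of control XY replicate 1 gave 17.0% for *Sostdc1* and 15.7% for the markers. The part of free RNA in the levels outside the interstitium was not tested.

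**Figure D2:**
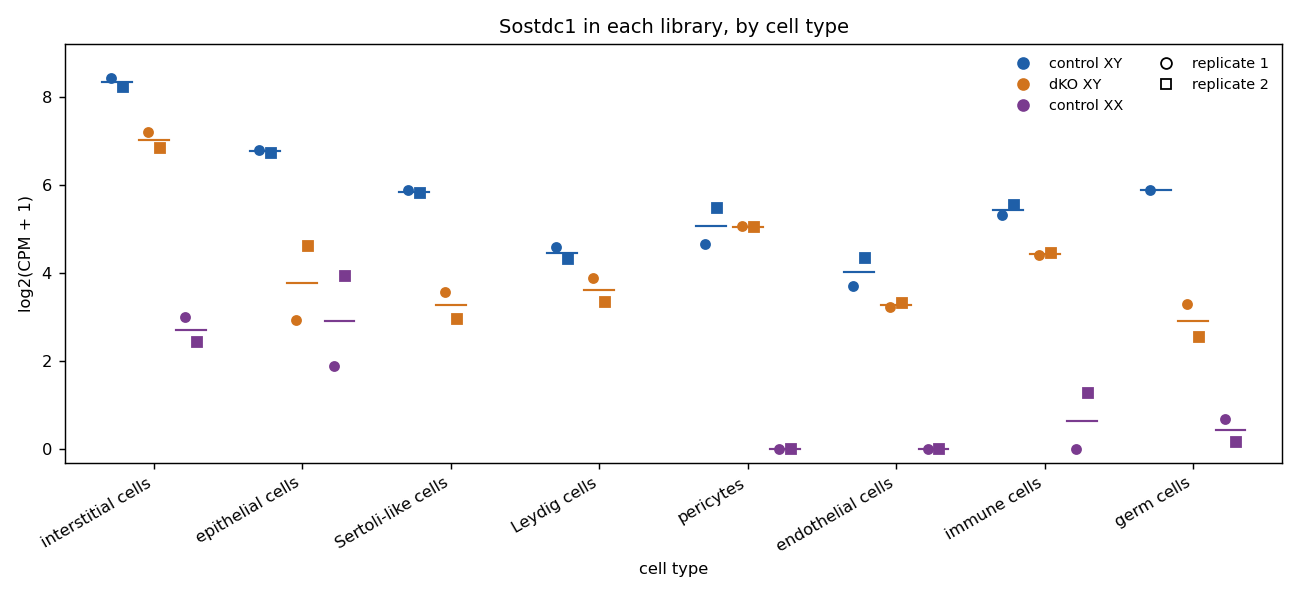
*Sostdc1* as log2(CPM + 1) (vertical axis) in each cell type (horizontal axis). Each point is a library, with the shape giving the replicate and the colour the group, and each bar is the group mean. The dKO XY libraries lay below the control XY libraries in interstitial, epithelial and Sertoli-like cells, and the control XX means were lowest in every type that control XX holds.

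The comparison of dKO XY with control XY supporting cells covered the lineage that makes AMH and activin B in the control testis. The makeup of this class also differed between the groups, as described below. The ligands *Bmp2*, *Bmp7* and *Bmp4* rose and the receptors *Acvr1* and *Bmpr2* and the antagonist *Sostdc1* fell. All 10 genes were tested, and dKO XY was higher in 3 and lower in 3, against 16.7% of all genes called, 9.88% higher and 6.85% lower. The median log2 fold change of the 10 was -0.06, beside 0.02 over all genes tested. *Bmp2* went from 1.72 ± 0.175 CPM to 21.9 ± 2.96 CPM (mean ± SD, n = 2 libraries), a log2 fold change of 3.65 ± 0.19 (SE, edgeR adjusted p = 6.61e-06). *Bmp7* went from 2.41 ± 0.251 to 18.6 ± 2.81 CPM (SD, n = 2), a log2 fold change of 2.98 ± 0.24 (SE, edgeR adjusted p = 5.78e-05). The libraries of the groups did not overlap for either ligand, a weak criterion with 2 libraries against 2, and its share over all genes is not given. *Bmp4* was read at 2.09 and 3.25 CPM in control XY and 8.28 and 9.32 CPM in dKO XY, and its log2 fold change was 1.67 ± 0.29 (SE, edgeR adjusted p = 0.00417). *Sostdc1* fell from 54.5 and 55.6 CPM to 9.42 and 4.97 CPM, a log2 fold change of -2.93 ± 0.26 (SE, edgeR adjusted p = 9.55e-05). In control XY supporting cells it was at 15.8% and 18.5% of the interstitial level and the interstitial markers at 17.2% and 19.5%. In dKO XY it was at 6.46% and 4.41% and the markers at 15.4% and 14.2%. Other marker lists also differed between the supporting cells of these groups, and their part in the changes was not tested. The 9 granulosa markers summed to 887 and 891 CPM in control XY and 2319 and 2838 CPM in dKO XY. The 11 Sertoli markers summed to 8534 and 7587 CPM in control XY and 6708 and 4752 CPM in dKO XY. The 7 germ cell markers summed to 92.4 and 23.5 CPM in control XY and 213 and 284 CPM in dKO XY.

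The receptor changes in supporting cells were smaller. *Acvr1* was read at 12.4 and 16.0 CPM in control XY and 9.32 and 8.44 CPM in dKO XY, and its log2 fold change was -0.69 ± 0.17 (SE, edgeR adjusted p = 0.0225). *Bmpr2* was read at 70.9 and 92.5 CPM in control XY and 45.9 and 52.8 CPM in dKO XY, and its log2 fold change was -0.72 ± 0.17 (SE, edgeR adjusted p = 0.0177). Neither overlapped between groups, by the same weak criterion, and both calls rested on single libraries. The *Acvr1* change was -0.49 (adjusted p = 0.240) without control XY replicate 2, -0.65 (adjusted p = 0.0946) without dKO XY replicate 2 and -0.62 (adjusted p = 0.0794) without likely doublets. The *Bmpr2* change was -0.52 (adjusted p = 0.167) without control XY replicate 2 and -0.61 (adjusted p = 0.0906) without dKO XY replicate 1. *Bmp6* (0.02 ± 0.31), *Gdf10* (-0.20 ± 0.51), *Bmpr1a* (-0.13 ± 0.15) and *Bmpr1b* (0.40 ± 0.50, log2 ± SE) did not pass the test. The *Bmpr1b* value turned on the control XY library left out, at 1.66 (adjusted p = 0.0210) without replicate 1 and -0.49 (adjusted p = 0.430) without replicate 2.

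Supporting cells of dKO XY were a mixture of 3 clusters, and the ligands differed among them. A cluster that passed for 10 of 11 Sertoli markers, called Sertoli-like, held 95.0% and 96.6% of the supporting cells in control XY and 60.8% and 51.7% in dKO XY. A cluster that passed for 9 of 9 granulosa markers, called granulosa-like, held 99.8% and 99.6% in control XX and 5.29% and 2.61% in dKO XY. A cluster led by *Myl1*, *Cck* and *Cnmd*, with 5 of 9 granulosa markers but none among its 10 leading genes, held 33.9% and 45.7% in dKO XY and 5.02% and 3.37% (13 and 18 cells) in control XY. The naming rule classed it as granulosa, which put it among the supporting cells, but here it is called by its leading genes. *Bmp2* was read in the dKO XY granulosa-like cells at 114 and 113 CPM, where control XX gave 93.1 and 83.7 CPM. In the cluster led by *Myl1* and *Cck* it was 50.3 and 36.6 CPM, and in the Sertoli-like cells 5.80 and 3.78 CPM against 1.56 and 1.76 CPM in control XY. The cluster led by *Myl1* and *Cck* held 62.1% and 75.2% of the *Bmp2* UMIs of dKO XY supporting cells, and the granulosa-like cells 22.0% and 13.9%. *Bmp7* was less graded, with 21.7 and 26.4 CPM in granulosa-like cells, 21.9 and 22.8 CPM in the cluster led by *Myl1* and *Cck* and 13.8 and 18.7 CPM in Sertoli-like cells of dKO XY, against 2.61 and 2.28 CPM in those of control XY. *Bmp4* was read in the cluster led by *Myl1* and *Cck* at 18.4 and 15.2 CPM in dKO XY and at 21.9 and 54.1 CPM in the few such cells of control XY, which gave 10 and 21 UMIs, so there the dKO XY libraries were not the higher. Differences between clusters are descriptions, since the clusters were made from the same cells.

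**Figure D3:**
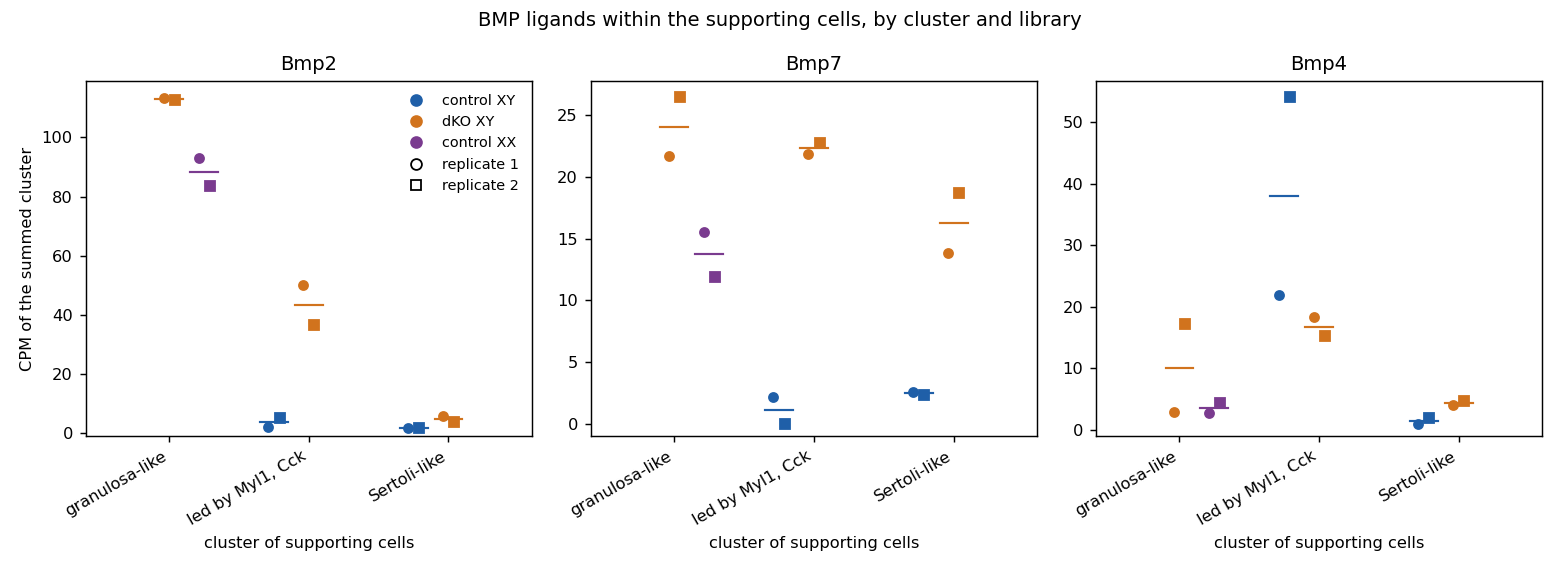
CPM (vertical axes) of *Bmp2*, *Bmp7* and *Bmp4* in the clusters of supporting cells (horizontal axes), 1 point per library, with the colour giving the group and bars the group means. *Bmp2* in dKO XY was highest in granulosa-like cells and lowest in Sertoli-like cells, whereas *Bmp7* was raised in dKO XY Sertoli-like cells as well.

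Within the Sertoli-like cells alone, the same 3 ligands were higher and the same 3 of the remaining genes lower in dKO XY, against 18.0% of all genes called, 9.76% higher and 8.27% lower. *Bmp7* had a log2 fold change of 2.73 ± 0.26 (SE, edgeR adjusted p = 6.07e-06), *Bmp2* of 1.49 ± 0.33 (SE, edgeR adjusted p = 0.00610) and *Bmp4* of 1.49 ± 0.36 (SE, edgeR adjusted p = 0.00928). The *Bmp2* level went from 1.56 and 1.76 CPM to 5.80 and 3.78 CPM. *Bmp4* went from 0.913 and 1.96 to 4.10 and 4.73 CPM, and its call was lost without control XY replicate 1, at 1.15 (adjusted p = 0.0818). Without likely doublets it was 2.41 (adjusted p = 0.00304). *Sostdc1* fell from 57.8 and 55.2 to 10.8 and 6.82 CPM (-2.69 ± 0.19 SE, edgeR adjusted p = 5.83e-07). *Acvr1* (-0.70 ± 0.19 SE, edgeR adjusted p = 0.0192) and *Bmpr2* (-0.76 ± 0.16 SE, edgeR adjusted p = 0.00376) fell too, but without control XY replicate 2 they were at -0.51 (adjusted p = 0.277) and -0.52 (adjusted p = 0.05999), and *Acvr1* was also not called by DESeq2, at -0.70 (adjusted p = 0.0633), or without likely doublets, at -0.64 (adjusted p = 0.0774).

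Between the control sexes, supporting cells of control XX had more *Bmp2*, *Bmp7* and *Bmpr1b* and less *Acvr1* and *Sostdc1* than those of control XY, 5 of 10 genes against 49.0% of all genes called, 25.2% higher and 23.8% lower. *Bmp2* differed by 5.60 ± 0.19 (SE, edgeR adjusted p = 4.67e-08) and *Bmp7* by 2.49 ± 0.24 (SE, edgeR adjusted p = 2.30e-05) on the log2 scale. *Sostdc1*, at 0.234 and 0.432 CPM in control XX, differed by -7.58 ± 0.36 (SE, edgeR adjusted p = 2.56e-07), and *Acvr1*, at 7.29 and 7.48 CPM, by -1.01 ± 0.17 (SE, edgeR adjusted p = 8.73e-04). The interstitial marker shares in control XY supporting cells are those given with the dKO XY comparison. The interstitial level of *Sostdc1* was itself 6.98 and 4.43 CPM in control XX, and the part of free RNA in the supporting cell difference was not tested. The *Bmpr1b* difference of 1.28 ± 0.48 (SE, edgeR adjusted p = 0.0498) was at the threshold, and 28 of the 37 UMIs of control XY replicate 1 came from its 13 cells of the cluster led by *Myl1* and *Cck*. It was 2.54 (adjusted p = 5.59e-04) without control XY replicate 1, 0.39 (adjusted p = 0.357) without control XY replicate 2, 1.07 (adjusted p = 0.138) without control XX replicate 1, 1.15 (adjusted p = 0.0561) by DESeq2 and 1.07 (adjusted p = 0.0836) without likely doublets.

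Set against control XX, dKO XY supporting cells had less *Bmp2* and more *Bmp4*, *Bmp6* and *Sostdc1*, 4 of 10 genes against 41.1% of all genes called, 21.3% higher and 19.8% lower. The log2 fold change was -1.95 ± 0.13 (SE, edgeR adjusted p = 4.08e-06) for *Bmp2*, 1.39 ± 0.25 (SE, edgeR adjusted p = 0.00189) for *Bmp4* and 4.65 ± 0.36 (SE, edgeR adjusted p = 9.30e-06) for *Sostdc1*. Sertoli markers summed to between 4752 and 6708 CPM in dKO XY and between 450 and 492 CPM in control XX. Granulosa markers summed to between 2319 and 2838 CPM and between 4205 and 4312 CPM, in the same order. Interstitial markers stood at 15.4% and 14.2% of the interstitial level in dKO XY and at 6.65% and 8.94% in control XX. The part of these lists was not tested. *Bmp7*, higher than control XY in both, was 16.6 and 20.6 CPM in dKO XY and 15.53 and 11.9 CPM in control XX, and this difference did not pass (0.49 ± 0.18 SE, edgeR adjusted p = 0.0561). It passed without dKO XY replicate 1 (0.65, adjusted p = 0.0360) or control XX replicate 1 (0.71, adjusted p = 0.0274). The *Bmp6* call (0.81 ± 0.28 SE, edgeR adjusted p = 0.0429), from 3.22 and 2.85 CPM in dKO XY and 2.00 and 1.53 CPM in control XX, was lost without any 1 of the 4 libraries. It was also lost by DESeq2 (0.82, adjusted p = 0.0689) and with all variable genes in clustering (0.79, edgeR adjusted p = 0.0510). It was 0.64 (adjusted p = 0.187) without control XX replicate 2 and 1.05 (adjusted p = 0.0541) without control XX replicate 1. It was 0.74 (adjusted p = 0.142) and 0.88 (adjusted p = 0.0817) without dKO XY replicates 1 and 2.

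**Figure D4:**
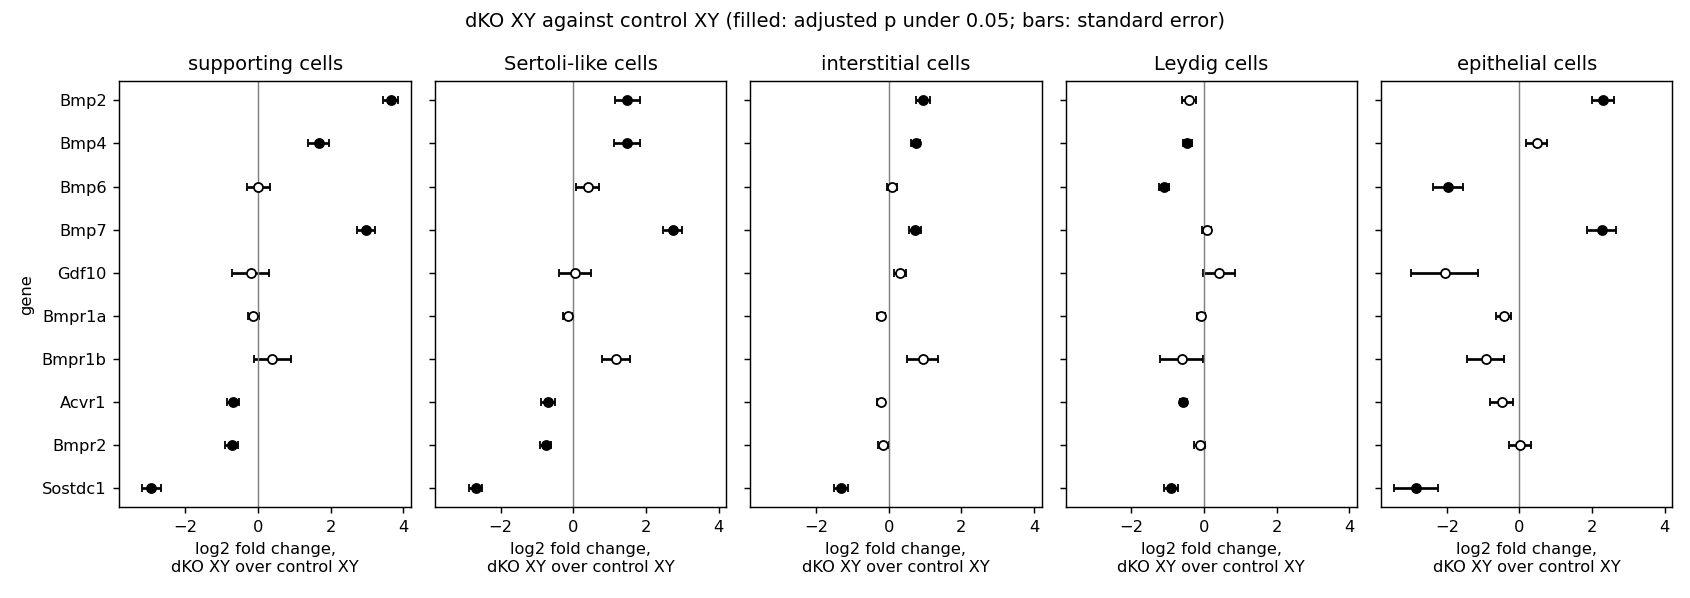
Log2 fold change of dKO XY over control XY (horizontal axes) for each of the 10 genes (vertical axis) in supporting, Sertoli-like, interstitial, Leydig and epithelial cells. Points are the fitted values from 2 libraries per group, bars their standard errors, and filled points passed at an edgeR adjusted p under 0.05. *Bmp2*, *Bmp4* and *Bmp7* lay to the right of 0 and *Sostdc1* to the left in the first 3 panels, and *Bmpr1a* was filled in none.

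In interstitial cells of dKO XY, the ligands *Bmp2*, *Bmp4* and *Bmp7* rose by less than 1 on the log2 scale and *Sostdc1* fell, 4 of 10 genes against 6.84% of all genes called, 4.01% higher and 2.82% lower. *Sostdc1* went from 322 ± 31.2 to 129 ± 23.5 CPM (mean ± SD, n = 2), a log2 fold change of -1.32 ± 0.19 (SE, edgeR adjusted p = 0.00864). *Bmp2* went from 10.1 and 9.51 to 19.5 and 18.3 CPM, a log2 fold change of 0.94 ± 0.19 (SE, edgeR adjusted p = 0.0271). *Bmp4* went from 11.6 and 11.8 to 19.1 and 20.6 CPM (0.75 ± 0.12 SE, edgeR adjusted p = 0.0130) and *Bmp7* from 11.8 and 12.3 to 18.0 and 22.0 CPM (0.72 ± 0.17 SE, edgeR adjusted p = 0.0464). The groups did not overlap for any of the 4, a weak criterion with 2 libraries against 2, and its share over all genes is not given. The 4 receptors, *Bmp6* and *Gdf10* did not pass, at log2 fold changes from -0.22 for *Acvr1* to 0.94 for *Bmpr1b*. The 8 interstitial markers summed to 4061 and 3825 CPM in control XY and 2697 and 2694 CPM in dKO XY. The 7 erythroid markers summed to 17.7 and 34.6 CPM and 242 and 311 CPM, and the 6 Leydig markers to 486 and 416 CPM and 517 and 785 CPM, in the same order of groups. Their part in the changes was not tested. The ligand calls were lost when a control XY library was left out. Without replicate 1 or 2, *Bmp2* was at 1.00 (adjusted p = 0.110) and 0.90 (adjusted p = 0.131), *Bmp4* at 0.75 (adjusted p = 0.0956) and 0.77 (adjusted p = 0.0794), and *Bmp7* at 0.70 (adjusted p = 0.226) and 0.76 (adjusted p = 0.165). *Bmp2* was also lost without dKO XY replicate 1 (0.88, adjusted p = 0.0606) and *Bmp7* without dKO XY replicate 2 (0.60, adjusted p = 0.143), and both were lost without the cycling cluster, at 0.81 (adjusted p = 0.0772) and 0.56 (adjusted p = 0.109).

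The interstitial cells were made of 3 clusters whose shares moved with the group. A cluster led by *Sostdc1*, *Pdlim3*, *Msc* and *Inhba* held 64.3% and 62.9% in control XY and 47.5% and 39.4% in dKO XY. A cycling cluster held 29.2% and 31.9% in control XY and 37.7% and 49.5% in dKO XY, and a cluster led by *Il33*, *Lum* and *Gdf10* held 6.49% and 5.14% in control XY and 14.8% and 11.1% in dKO XY. In control XX the last held 99.6% and 99.8% of interstitial cells. In the cluster led by *Sostdc1* and *Msc* alone, the same 4 genes passed in dKO XY against control XY, where 8.13% of genes were called. *Sostdc1* fell there from 422 and 372 to 196 and 169.9 CPM (-1.12 ± 0.11, log2 ± SE), *Bmp4* rose from 9.97 and 9.39 to 19.5 and 19.0 CPM (0.99 ± 0.10), and *Bmp7* rose from 12.2 and 11.7 to 19.4 and 22.9 CPM (0.82 ± 0.11). In the cluster led by *Il33* and *Lum* alone, 0 of 9 genes tested passed, *Bmpr1b* having too few UMIs for the test, where 0.205% of genes were called. *Bmp4* there was 14.8 and 21.4 CPM in control XY and 13.6 and 17.9 CPM in dKO XY (-0.23 ± 0.23), and *Sostdc1* was 140.3 and 109.8 CPM in control XY and 94.3 and 77.6 CPM in dKO XY (-0.55 ± 0.19). The part that the shift in cluster shares had in the whole-class values was not tested beyond these within-cluster fits, which were chosen after seeing the data.

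Between the sexes, interstitial cells had *Bmp6*, *Bmpr1b*, *Gdf10* and *Acvr1* higher and *Sostdc1*, *Bmp2*, *Bmp4* and *Bmp7* lower in control XX, 8 of 10 genes against 25.2% of all genes called, 11.9% higher and 13.3% lower. *Sostdc1* differed by -5.78 ± 0.24 (SE, edgeR adjusted p = 3.24e-06) on the log2 scale, *Bmp4* by -1.10 ± 0.13 (SE, edgeR adjusted p = 6.27e-04), *Bmp2* by -1.38 ± 0.21 (SE, edgeR adjusted p = 0.00211) and *Bmp7* by -1.39 ± 0.19 (SE, edgeR adjusted p = 0.00112). *Bmp6* was higher by 1.64 ± 0.14 (SE, edgeR adjusted p = 9.36e-05) and *Gdf10* by 1.62 ± 0.16 (SE, edgeR adjusted p = 2.33e-04). Nearly all control XX cells were in the cluster led by *Il33* and *Lum*, and within that cluster several of these differences did not hold. *Sostdc1* and *Bmp4* stayed lower in control XX there, at -4.42 (adjusted p = 6.22e-07) and -1.78 (adjusted p = 3.79e-04). *Gdf10* turned, with 94.0 and 85.3 CPM in control XY, 69.6 and 114 CPM in dKO XY and 27.1 and 35.3 CPM in control XX (-1.46, adjusted p = 9.69e-04). *Bmp7* turned as well, with 1.53 and 1.89 CPM in control XY and 5.48 and 3.42 CPM in control XX (1.41, adjusted p = 0.0153). *Bmp6* was read at 10.9 and 11.2 CPM in control XY and 10.2 and 9.11 CPM in control XX in that cluster, and did not pass (-0.15, adjusted p = 0.619). Without the cycling cluster *Bmp2* was at -0.88 (adjusted p = 0.0240), while the *Acvr1* call was lost, at 0.26 (adjusted p = 0.0792). In the cluster led by *Il33* and *Lum*, *Bmp2* (-0.85, adjusted p = 0.0737) and *Acvr1* (-0.15, adjusted p = 0.550) did not pass either. The call of *Acvr1* (0.37 ± 0.10 SE, edgeR adjusted p = 0.0249) was lost without any 1 control library. It was 0.35 (adjusted p = 0.190) without control XY replicate 1 and 0.42 (adjusted p = 0.123) without control XY replicate 2. It was 0.38 (adjusted p = 0.0560) and 0.37 (adjusted p = 0.0753) without control XX replicates 1 and 2. The call of *Bmpr1b* (2.15 ± 0.43 SE, edgeR adjusted p = 0.00765) was lost without control XY replicate 1 (1.96, adjusted p = 0.0594). *Bmpr1b* rested on few transcripts, 11 and 16 UMIs in control XY. Marker lists also differed between these interstitial cells. The 11 Sertoli markers summed to between 130 and 223 CPM in control XY and between 17.3 and 27.7 CPM in control XX. The 9 granulosa markers summed to between 340 and 364 CPM in control XY and between 583 and 810 CPM in control XX. Their part in the differences was not tested.

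**Figure D5:**
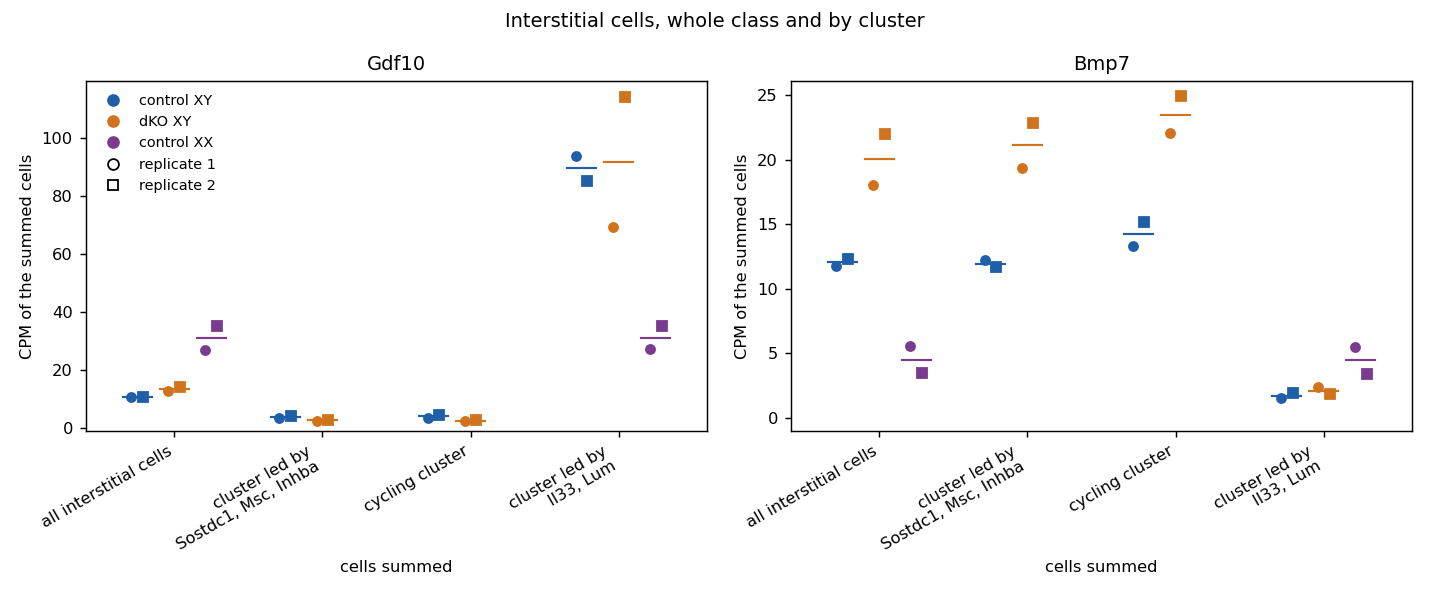
CPM (vertical axes) of *Gdf10* and *Bmp7* in all interstitial cells and in each of their clusters (horizontal axes), 1 point per library, with the colour giving the group, the shape the replicate and bars the group means. *Gdf10* was highest in control XX over all interstitial cells but lowest in control XX within the cluster led by *Il33* and *Lum*, and *Bmp7* had the reverse order of control XY and control XX.

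Compared with control XX, dKO XY interstitial cells had more *Bmp2*, *Bmp4*, *Bmp7* and *Sostdc1* and less *Bmp6*, *Gdf10* and *Acvr1*, 7 of 10 genes against 27.8% of all genes called, 14.8% higher and 12.9% lower. *Sostdc1* differed by 4.46 ± 0.22 (SE, edgeR adjusted p = 1.00e-05), *Bmp2* by 2.32 ± 0.21 (SE, edgeR adjusted p = 1.72e-04), *Bmp7* by 2.12 ± 0.19 (SE, edgeR adjusted p = 1.54e-04) and *Bmp4* by 1.85 ± 0.13 (SE, edgeR adjusted p = 5.53e-05) on the log2 scale. *Bmp6* differed by -1.56 ± 0.14 (SE, edgeR adjusted p = 1.41e-04) and *Gdf10* by -1.31 ± 0.16 (SE, edgeR adjusted p = 7.19e-04). Without the cycling cluster the *Gdf10* call was lost, at -0.27 (adjusted p = 0.395). In the cluster led by *Il33* and *Lum* alone, *Gdf10* (1.47, adjusted p = 8.60e-04) and *Bmp7* (-1.09, adjusted p = 0.0382) had the opposite sign, and *Bmp6* (-0.32, adjusted p = 0.275) and *Acvr1* (-0.08, adjusted p = 0.798) did not pass. Over all interstitial cells, the 11 Sertoli markers summed to between 185 and 202 CPM in dKO XY and between 17.3 and 27.7 CPM in control XX. The 9 granulosa markers summed to between 374 and 446 CPM in dKO XY and between 583 and 810 CPM in control XX. The part of these markers in the differences was not tested.

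In Leydig cells, the steroid-producing cells of the testis, *Bmp6*, *Bmp4*, *Acvr1* and *Sostdc1* fell and none of the 10 genes rose in dKO XY, 4 of 10 against 8.94% of all genes called, 5.79% higher and 3.15% lower. *Bmp6* went from 26.6 ± 1.499 to 12.7 ± 2.68 CPM (mean ± SD, n = 2), a log2 fold change of -1.10 ± 0.14 (SE, edgeR adjusted p = 0.00388). *Acvr1* went from 26.7 and 26.7 to 18.5 and 18.3 CPM (-0.57 ± 0.10 SE, edgeR adjusted p = 0.0100) and *Bmp4* from 30.3 and 30.4 to 24.5 and 20.7 CPM (-0.46 ± 0.12 SE, edgeR adjusted p = 0.0456). *Bmp2*, at 59.4 and 49.8 CPM in control XY and 50.7 and 32.6 CPM in dKO XY, overlapped between the groups and did not pass (-0.42 ± 0.20 SE, edgeR adjusted p = 0.242), nor did *Bmp7* (0.07 ± 0.12 SE, edgeR adjusted p = 0.773). *Bmp2* passed without dKO XY replicate 1 (-0.79, adjusted p = 0.00282) or control XY replicate 2 (-0.55, adjusted p = 0.0263). The *Sostdc1* change (-0.90 ± 0.20 SE, edgeR adjusted p = 0.0282) was -0.33 (adjusted p = 0.302) without likely doublets. That of *Bmp4* was lost without dKO XY replicate 2 (-0.32, adjusted p = 0.0843) and without control XY replicate 1 (-0.46, adjusted p = 0.0960) or 2 (-0.46, adjusted p = 0.0827). In these cells the 6 Leydig markers summed to 33486 and 31493 CPM in control XY and 23394 and 23255 CPM in dKO XY. The 9 granulosa markers summed to 126 and 146 CPM and 318 and 381 CPM, and the 7 erythroid markers to 14.8 and 25.9 CPM and 104 and 542 CPM, in the same order of groups. Their part in the changes was not tested.

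Whether the change from control XY to dKO XY itself differed between cell types was tested with the library as a block. The fit of interstitial and supporting cells held all 6 libraries, and that of interstitial and Leydig cells the 4 XY libraries. Between interstitial and supporting cells it differed for 6 of 10 genes, against 20.1% of all genes called, 11.7% higher and 8.40% lower, and the rise of *Bmp2* was 2.64 ± 0.23 (SE, edgeR adjusted p = 6.36e-05) smaller on the log2 scale in interstitial cells. Between interstitial and Leydig cells it also differed for 6 of 10 genes, against 13.8% of all genes called, 7.13% higher and 6.65% lower. The interstitial change of *Bmp2* exceeded that of Leydig cells by 1.40 ± 0.16 (SE, edgeR adjusted p = 0.00175), of *Bmp4* by 1.23 ± 0.12 (SE, edgeR adjusted p = 9.69e-04) and of *Bmp6* by 1.20 ± 0.16 (SE, edgeR adjusted p = 0.00334). *Bmpr1a* did not pass in either test, at -0.04 ± 0.10 and -0.10 ± 0.06. The clusters that made up supporting and interstitial cells changed in share between the groups, and their part in these differences was not tested.

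Among the smaller classes, epithelial cells of dKO XY had more *Bmp2* and *Bmp7* and less *Bmp6* and *Sostdc1* than those of control XY, 4 of 10 genes against 6.39% of all genes called, 2.84% higher and 3.55% lower. *Bmp2* differed by 2.29 ± 0.30 (SE, edgeR adjusted p = 0.00346). *Bmp7* went from 4.28 and 6.17 to 25.3 and 25.7 CPM (2.26 ± 0.39 SE, edgeR adjusted p = 0.00855), *Bmp6* from 11.1 and 17.3 to 4.13 and 3.20 CPM (-1.96 ± 0.41 SE, edgeR adjusted p = 0.0199) and *Sostdc1* from 109.7 and 106 to 6.69 and 23.5 CPM (-2.84 ± 0.61 SE, edgeR adjusted p = 0.0206). Control XY had only 30 and 41 epithelial cells, and the interstitial markers summed to 66.4% and 69.9% of the interstitial level there and to 36.5% and 46.7% in dKO XY. The 9 granulosa markers summed to 335 and 356 CPM in control XY and 1327 and 1215 CPM in dKO XY epithelial cells. The part of either marker list in these differences was not tested. Only the *Bmp2* call held without each library in turn. Without control XY replicate 1 or 2, *Bmp7* was at 2.10 (adjusted p = 0.0675) and 2.57 (adjusted p = 0.0639), *Bmp6* at -2.18 (adjusted p = 0.0541) and -1.60 (adjusted p = 0.211) and *Sostdc1* at -2.77 (adjusted p = 0.102) and -2.88 (adjusted p = 0.102). *Bmp6* was also lost without dKO XY replicate 1 (-2.19, adjusted p = 0.0605) or 2 (-1.72, adjusted p = 0.132) and *Sostdc1* without dKO XY replicate 1 (-2.23, adjusted p = 0.111).

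In the main fit, which left out genes of low counts, none of these genes was called between dKO XY and control XY in the cells of vessels and blood. In endothelial cells 0 of 8 genes tested passed between dKO XY and control XY in edgeR and in DESeq2, against 0.600% of all genes called, 0.267% higher and 0.334% lower, and *Sostdc1* alone had an unadjusted p under 0.05, in both tools. In pericytes 0 of 8 passed in both tools, against 0.283% of all genes called, 0.167% higher and 0.117% lower, and *Bmp7* and *Gdf10* had an unadjusted p under 0.05 in edgeR and 0 genes in DESeq2. In immune cells 0 of 7 passed in both tools, against 0.00868% of all genes called, 0.00868% higher and 0.00% lower, and *Bmpr2* and *Sostdc1* had an unadjusted p under 0.05 in edgeR and *Sostdc1* alone in DESeq2. Between the sexes, endothelial *Bmp2* was higher in control XX (0.84 ± 0.19 SE, edgeR adjusted p = 0.0195) and *Sostdc1* lower, 2 of 8 genes against 5.05% of all genes called, 1.74% higher and 3.30% lower. The *Bmp2* call was lost without control XY replicate 1 (0.74, adjusted p = 0.147) or 2 (0.99, adjusted p = 0.0996) and without control XX replicate 2 (0.69, adjusted p = 0.102). In pericytes *Bmp2* (-2.04 ± 0.42 SE, edgeR adjusted p = 0.00788), *Bmp4* (-1.85 ± 0.29 SE, edgeR adjusted p = 9.88e-04) and *Sostdc1* were lower in control XX, 3 of 8 genes against 7.76% of all genes called, 2.85% higher and 4.92% lower. *Bmp2* was lost without control XY replicate 2 (-1.69, adjusted p = 0.0728) or control XX replicate 2 (-1.71, adjusted p = 0.182), and *Bmp4* without control XX replicate 2 (-1.56, adjusted p = 0.0505). Both ligands were also high in control XY Leydig cells, a type not found in control XX. The 11 Sertoli markers in pericytes summed to between 122 and 219 CPM in control XY and between 13.4 and 18.1 CPM in control XX. The part of other cell types in the pericyte differences was not tested. *Sostdc1* had 0 UMIs in control XX endothelial cells and pericytes. A floor of 3 counts was set in the control XX library of fewer UMIs. The control XY mean of *Sostdc1* was 26.7 times that floor in endothelial cells and 13.4 times in pericytes. In control XY its level was 3.48% and 6.48% of the interstitial level in endothelial cells, where the interstitial markers stood at 10.0% and 13.01%. In pericytes it was 7.02% and 14.5% against 29.4% and 33.0% for the markers. The part of free RNA in these differences was not tested.

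Germ cells could be compared only between dKO XY (412 and 278 cells) and control XX (258 and 227 cells), and in this comparison sex and genotype cannot be told apart. *Bmp4*, *Sostdc1*, *Acvr1* and *Bmp7* were higher and *Bmp2* and *Bmpr2* lower in dKO XY, 6 of 9 genes against 49.7% of all genes called, 24.9% higher and 24.9% lower. *Bmp4* was read at 9.44 and 9.11 CPM in dKO XY and 0.207 and 0.514 CPM in control XX (4.76 ± 0.46 SE, edgeR adjusted p = 1.67e-12), and *Acvr1* at 6.12 and 7.62 CPM in dKO XY and 3.21 and 1.41 CPM in control XX (1.59 ± 0.35 SE, edgeR adjusted p = 1.54e-04). *Bmp2* was read at 4.95 and 3.46 CPM in dKO XY and 11.6 and 18.8 CPM in control XX (-1.75 ± 0.28 SE, edgeR adjusted p = 6.74e-07), in the same direction as in the supporting cells of these groups. *Sostdc1* stood at 6.07% and 4.30% of the interstitial level in dKO XY germ cells, where the interstitial markers stood at 9.10% and 7.09%. Its difference of 4.15 ± 0.48 (SE, edgeR adjusted p = 3.66e-10) was 7.35 (adjusted p = 7.34e-07) without likely doublets. Markers of other types also differed between these germ cells. The 5 mesonephric tubule markers summed to 76.7 and 90.7 CPM in dKO XY and 6.002 and 4.88 CPM in control XX. The 6 Leydig markers summed to 295 and 214 CPM in dKO XY and 8.59 and 8.22 CPM in control XX, and the 11 Sertoli markers to 191 and 245 CPM in dKO XY and 56.2 and 42.5 CPM in control XX. Their part in the differences between these germ cells was not tested.

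The wider BMP pathway was read from a list of 48 further genes. In dKO XY supporting cells, 6 of 38 tested were higher and 9 lower than in control XY, against 9.88% higher and 6.85% lower over all genes, with a median log2 fold change of -0.15 beside 0.02 over all genes. *Msx1*, a homeobox target of BMP signalling, rose by 5.67 ± 0.66 on the log2 scale (SE, edgeR adjusted p = 3.78e-04), and *Smoc1*, a secreted modulator, by 1.59 ± 0.14 (adjusted p = 8.38e-05). The type I receptor gene *Acvrl1* changed by -2.38 ± 0.14 and the inhibitory SMADs *Smad6* and *Smad7* by -2.15 ± 0.17 and -1.37 ± 0.20 (SE). Of the 6 targets only *Msx1* passed here, whereas between control XX and control XY all 6 were higher in control XX, among them *Id2* (1.99 ± 0.32), *Id3* (1.89 ± 0.44) and *Id4* (1.88 ± 0.49). In that comparison 13 of 38 were higher and 12 lower, against 25.2% higher and 23.8% lower over all genes. The antagonist *Smoc2* (-5.92 ± 0.37) was among the lower genes. In interstitial cells 3 of 40 were higher and 2 lower in dKO XY than in control XY, against 4.01% higher and 2.82% lower over all genes, with *Amhr2*, the AMH type II receptor, at 1.97 ± 0.21 and the co-receptor *Rgma* at -0.73 ± 0.11. Between the sexes 20 of 40 were higher and 8 lower in control XX, against 11.9% higher and 13.3% lower over all genes, with *Id2* at 2.66 ± 0.34, *Id3* at 2.56 ± 0.44 and the ligand *Bmp5* at -2.78 ± 0.24. In Leydig cells 2 of 37 were higher and 2 lower in dKO XY, against 5.79% higher and 3.15% lower over all genes, with *Amhr2* at 1.02 ± 0.12 and *Acvrl1* at -0.69 ± 0.15.

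Over 45 summed profiles of a cell type and library, the genes whose log2(CPM + 1) pattern was most like that of a member were found by Pearson correlation among 13190 genes. The profiles share libraries and 8 cell types, so the coefficients are descriptions. *Sostdc1* was closest to *Pdlim3* (r = 0.93), *Kcnd3* (0.91) and the chemokine gene *Cxcl12* (0.89). *Gdf10* was closest to *Ntrk3* (0.86), *Ncam1* (0.84) and the collagen gene *Col6a3* (0.83). *Bmp6* was near *Cdon* (0.86), *1010001N08Rik* (0.86) and the transcription factor gene *Gata6* (0.84), and *Bmp7* near *Gk5* (0.87), *Mme* (0.86) and the receptor gene *Fgfr2* (0.85). *Bmp4* was near *RP23-87H19.3* (0.86), *Pcsk5* (0.80), which encodes a proprotein convertase, and *Slc1a4* (0.80). The receptor *Acvr1* and *Ptrf* gave 0.90, *Bmpr2* and *Spag9* 0.85, and *Bmpr1b* and *Ppp2r2b* 0.85. *Bmp2* had the weakest nearest neighbour of the ligands, *Reep5* at 0.76.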

How the data were processed

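Gonads at E15.5 were measured by 10x Genomics single cell mRNA sequencing in 6 libraries, 2 per group. The deposited counts are raw UMI counts per gene symbol and barcode, which the authors produced with Cell Ranger v3.0, correcting for swapped barcodes. The submitters' processing notes name Cell Ranger, Seurat 4.0 and mm10, and the annotation release is not given in the sources used here. The gene lists of the libraries were merged (26251 genes, 21110 listed in all libraries).

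Cells with over 2500 and under 9000 genes, under 25% mitochondrial and under 20% *Hbb* UMIs were kept, as in the study. Clusters were computed with Seurat 5.3.0 (R 4.3.3) on 3000 variable genes, from which 19 BMP pathway genes were left out, 4 of them among the 10 described, with 20 dimensions and a resolution of 0.21. A cluster was named where at least 3 markers of a class were each detected in 10% or more of its cells, at 1.5 or more times their mean level in the other clusters, a rule set after the values were seen. Doublets were kept, since the Scrublet method of scanpy 1.11.5 marked between 0 and 129 cells per library, and an alternative left out the 8% of cells that scored highest.

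The UMIs of each cell type were added up within each library, for types with at least 10 cells, and tested with edgeR 4.0.16 (filterByExpr, TMM, glmQLFit, glmQLFTest), the group being the only factor and the fit holding all groups that have the type. P-values were adjusted over all genes tested by the Benjamini-Hochberg method and called under 0.05, and the SE is the log2 fold change divided by the root of the F statistic. With 2 libraries against 2, an exact permutation test cannot go below p = 0.333, so none was run. The methods name biological replicates, but the labels name no animals, so p-values measure the spread between these libraries. The edgeR functions, and no other step, were run on simulated counts with known changes. A simulated log2 change of 1 was recovered for 80.8% of genes in Leydig, 69.4% in supporting and 63.6% in interstitial cells. Recovery was 26.8% in epithelial cells, 21% in immune cells and 38% for the interstitial minus the supporting change. The alternatives were DESeq2 1.42.0, its size factors in edgeR, no filter on low counts, the groups compared alone, a replicate block, all variable genes, leaving out likely doublets, cells with *Sycp3* or *Tcf21* or the cycling cluster, single clusters, and each library in turn.

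All 10 genes are named, and of the 48 other pathway genes up to 4 called genes per direction with the largest change and a mean log2 CPM of at least 3. Likeness was computed among genes with a CPM of at least 10 in at least 1 profile, and the 3 most alike were taken. Some genes that these rules name are not reported here. The 10 genes and the lists were chosen with earlier results of these data known. Floors of 3 counts cover counting error only.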

Additional observations from a re-analysis of the deposited data

Results flagged for a closer look

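The change from control XY to dKO XY differed between interstitial and supporting cells of the same libraries for the genes below. This was tested by the interaction of cell type and genotype in edgeR. The count of genes called is given above, beside the share over all genes. The interstitial minus the supporting log2 change was -2.64 ± 0.23 (SE, adjusted p = 6.36e-05) for *Bmp2*, -2.22 ± 0.17 (SE, adjusted p = 2.59e-05) for *Bmp7*, -0.86 ± 0.21 (SE, adjusted p = 0.0177) for *Bmp4*, 1.69 ± 0.18 (SE, adjusted p = 2.13e-04) for *Sostdc1*, 0.62 ± 0.10 (SE, adjusted p = 0.00196) for *Bmpr2* and 0.52 ± 0.13 (SE, adjusted p = 0.0196) for *Acvr1*. Over the whole classes, the 3 ligands rose more in supporting cells and *Sostdc1* fell more there. Sertoli-like cells made up 95.0% and 96.6% of supporting cells in control XY and 60.8% and 51.7% in dKO XY. The part of this makeup in the differences was not tested. The 8 interstitial markers in supporting cells summed to 698 and 747 CPM in control XY and 415 and 383 CPM in dKO XY, and their part in the *Sostdc1* difference was not tested. The *Bmp4* difference was -0.64 (adjusted p = 0.0915) without control XY replicate 1 and -0.81 (adjusted p = 0.0716) without dKO XY replicate 2. That of *Acvr1* was 0.33 (adjusted p = 0.220) without control XY replicate 2, 0.51 (adjusted p = 0.0692) and 0.50 (adjusted p = 0.0846) without dKO XY replicates 1 and 2, and 0.43 (adjusted p = 0.114) without likely doublets.

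Between interstitial and Leydig cells the change also differed for the genes below, whose count is given above beside the share over all genes. The interstitial minus the Leydig log2 change was 1.40 ± 0.16 (SE, adjusted p = 0.00175) for *Bmp2*, 1.23 ± 0.12 (SE, adjusted p = 9.69e-04) for *Bmp4*, 1.20 ± 0.16 (SE, adjusted p = 0.00334) for *Bmp6*, 0.67 ± 0.12 (SE, adjusted p = 0.0115) for *Bmp7*, 0.36 ± 0.08 (SE, adjusted p = 0.0180) for *Acvr1* and -0.40 ± 0.09 (SE, adjusted p = 0.0196) for *Sostdc1*. The *Acvr1* difference was 0.32 (adjusted p = 0.110) without control XY replicate 1, 0.39 (adjusted p = 0.0509) without control XY replicate 2 and 0.37 (adjusted p = 0.0582) by DESeq2. That of *Sostdc1* was -0.44 (adjusted p = 0.0628) and -0.37 (adjusted p = 0.0591) without control XY replicates 1 and 2, and -0.999 (adjusted p = 5.13e-04) without likely doublets.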

How the results depend on the processing

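Of 2003 log2 fold changes of the 10 genes recomputed under the alternatives, 1888 stayed on their side of the threshold, 80 were no longer called, 28 were newly called and 7 that were called turned in sign. Of the 1888, 73 changed sign without being called in either fit. All 7 turns came from fitting the cluster led by *Il33* and *Lum* alone, which changes the cells compared: between dKO XY and control XY *Bmp4* was at -0.23, between control XX and control XY *Bmp6* was at -0.15, *Bmp7* at 1.41, *Gdf10* at -1.46 and *Acvr1* at -0.15, and between dKO XY and control XX *Bmp7* was at -1.09 and *Gdf10* at 1.47. In that cluster 0 of 9 genes tested were called between dKO XY and control XY and 4 between control XX and control XY. Without the cycling cluster, 2 were called in interstitial cells between dKO XY and control XY. With no filter on low counts, 1 gene was called in endothelial and 2 in immune cells between dKO XY and control XY, and the cause was not tested. Leaving out each library in turn gave between 1 and 4 called genes in interstitial cells and between 1 and 4 in epithelial cells of dKO XY against control XY, 1 to 2 in endothelial cells and 1 to 3 in pericytes of control XX against control XY. Of 218 counts, 204 stayed within 1.5 times the main count. Most counts here and below lack the share of all genes called in that fit, so they are not results about these genes. Levels were recomputed without likely doublets and with all variable genes in clustering. Of 470 mean levels, 87 moved by more than the SD of the main setting, 67 of them without likely doublets.

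For replicates with the same number, the correlation of their deviations from the group means lay between -0.217 and 0.155. Between control XX and dKO XY it was negative in every cell type compared. With 2 libraries per group, crossing the numbers turns its sign, and a crossed block was fitted in germ cells only. With the replicate block, *Bmp7* in interstitial cells of dKO XY against control XY was at 0.72 (adjusted p = 0.0934), *Acvr1* in those of control XX against control XY at 0.37 (adjusted p = 0.0650) and *Bmp6* in supporting cells of dKO XY against control XX at 0.82 (adjusted p = 0.0683), and 5 genes were called in Leydig cells. With the numbers crossed in germ cells, which was added after seeing the data, 6 of the 10 genes and 7808 genes in all were called, beside 6599 with the block as numbered and 7281 without it. Epithelial *Sostdc1* was not called by DESeq2, at -2.87 (adjusted p = 0.0890), and Leydig *Bmp4* not when all variable genes were used in clustering, at -0.43 (adjusted p = 0.0682). Leaving out a library, calls not named above were gained for *Bmpr2* in Leydig cells of dKO XY against control XY without dKO XY replicate 2 (-0.38, adjusted p = 0.0417), for *Bmp6* and *Bmpr2* in supporting cells of control XX against control XY without control XY replicate 1 (-1.08, adjusted p = 0.0279, and -0.61, adjusted p = 0.0308), and for *Bmpr2* there also without control XX replicate 1 (-0.61, adjusted p = 0.0234). In dKO XY against control XX they were gained for *Bmpr1b* in interstitial cells (-1.63, adjusted p = 0.0455) and *Gdf10* in germ cells (-1.28, adjusted p = 0.0484) without control XX replicate 2, and for *Bmpr1b* in supporting cells without control XY replicate 1 or 2 (-0.88, adjusted p = 0.0115, and -0.89, adjusted p = 0.00924). In supporting cells of control XX against control XY, 7 genes were called in place of 5 without cells positive for *Sycp3* or *Tcf21*, with *Bmp4* (0.85, adjusted p = 0.0476), *Bmp6* (-1.08, adjusted p = 0.0185) and *Bmpr2* (-0.48, adjusted p = 0.0445) gained and *Bmpr1b* (1.05, adjusted p = 0.0823) lost. With no filter on low counts 7 were called there, and 6 in place of 4 in dKO XY against control XX. The depth limits *Bmpr1b*, with 11 and 16 UMIs in control XY interstitial cells, and the small epithelial and germ classes of control XY.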
